A study of Mus musculus with 5 samples.

Results

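Solute carriers of glucose, amino acids and monocarboxylates were compared between MLE-15 cells that carried an shRNA against Grhl2 and cells that carried a non-silencing shRNA. The MLE-15 line was grown from lung tumours of mice that expressed the large T antigen of SV40 under a human surfactant protein C (SP-C) promoter. The members were chosen by gene symbol alone: every probe set with a single symbol of the families Slc1a, Slc2a, Slc3a, Slc5a, Slc6a, Slc7a, Slc16a, Slc36a, Slc38a or Slc43a, with Slc2a1 left out. That gave 105 of the 34760 probe sets on the array, for 102 of the 19937 genes with a single symbol. Of these 102, 76 passed a filter on dim signal (a mean log2 value of at least 4.22 over the arrays) and 26 did not. The prefixes also took in 3 genes whose symbols contain that of a carrier but which are not carriers themselves, Slc7a6os, Slc6a19os and Slc2a4rg-ps. Of these, 2 were tested and neither passed the threshold.

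The knockdown group held 3 arrays and the control group 2, each array from its own transduction of the same line, so the replicates share their parent cells. Both groups received a lentivirus with a GFP reporter (multiplicity of infection 50, 16 h, polybrene at 5 µg/ml) and were then kept under 5 µg/ml puromycin for 6 days. The labels name only a single hairpin against Grhl2, a transcription factor gene of the Grainyhead-like family that acts in epithelia. The aim of the series was to find genes that depend on Grhl2 in lung epithelial cells.

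Cells take up polar nutrients mainly through membrane carriers. Facilitative carriers (Slc2a) let sugars flow down their gradient, and sodium-coupled carriers (Slc5a, Slc1a, most Slc6a and several Slc38a) pump their cargo inward with sodium. The light chains of the Slc7a family reach the membrane bound to an Slc3a heavy chain and mostly exchange amino acids. Proton-linked monocarboxylate carriers (Slc16a) move lactate and pyruvate, and some carriers sit on lysosomes, where they pass amino acids or report them to the growth regulator mTORC1. In lung epithelium, such carriers feed the cells and also clear glucose and amino acids from the airway surface liquid.

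The knockdown of the target was small. Grhl2 (probe set 10423770) read 7.77 and 7.68 (log2) in the controls and 7.43, 7.43 and 7.60 in the knockdown, so that the mean was 85.0% of the control signal, with a limma adjusted p of 0.082 and an exact two-sided permutation p of 0.2 (the smallest that 10 splits allow is 0.1). It passed the threshold in 3 of 14 alternative settings: with knockdown replicate 3 left out (limma adjusted p = 0.047), with a stricter filter, at the 50th percentile (limma adjusted p = 0.032), and with a trended robust prior (limma adjusted p = 0.023). The median of each array was 5.29 to 5.32 on the log2 scale. The 9 lung epithelial markers checked were all above the filter, with a mean log2 value of 9.91 to 10.06 on the knockdown arrays and 10.03 to 10.11 on the control arrays. Of these 9, Sftpd, which encodes surfactant protein D, fell by 0.33 (limma adjusted p = 0.021, and 0.063 to 0.134 without knockdown replicate 2 or either control), and 8 did not pass. Of markers of other cell types, 4 of 5 endothelial genes passed the filter, and the mean over the 5 was 5.37 to 5.45 in the knockdown and 5.25 to 5.33 in the control. For leukocytes, 3 of 4 genes passed it, with a mean over the 4 of 5.00 to 5.06 and 4.93 to 5.00. All 5 fibroblast genes passed it, with a mean of 5.87 to 5.98 and 5.81 to 5.83. From each of these 3 lists 1 gene rose: Tek by 0.91 (limma adjusted p = 0.0066, and 0.057 without control replicate 2), Tyrobp by 0.28 (limma adjusted p = 0.020, and 0.053 to 0.125 when any array other than knockdown replicate 3 was left out) and Dcn by 0.70 (limma adjusted p = 0.036, and 0.066 to 0.180 when any array other than knockdown replicate 1 was left out). The other tested genes of these lists were all below 0 and did not pass, 3 for endothelium (−0.15 to −0.07), 2 for leukocytes (−0.06 and −0.01) and 4 for fibroblasts (−0.07 to −0.0002). The part of these markers in the results on transporters was not tested. In a bulk culture, fewer cells of a type and less RNA per cell cannot be told apart.

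Among the 76 transporter genes tested, 2 were higher and 6 lower in the knockdown, and 68 did not pass an adjusted p of 0.05. Slc6a13, a GABA and taurine carrier, and Slc5a3, the sodium-coupled myo-inositol carrier, rose. Slc6a14, an uptake carrier for neutral and cationic amino acids, Slc38a1, a glutamine carrier, Slc38a6, Slc2a10, the creatine carrier Slc6a8 and the cationic amino acid exchanger subunit Slc7a7 fell. Over all 14979 genes tested, 6.38% passed in either direction, 2.86% as higher and 3.52% as lower, against 10.5% of the members in either direction. Those shares over all genes are the background for each count of called genes given below. No member reached a 1.5-fold change: the sizes of the called changes ran from 1.19-fold to 1.49-fold. The members did not shift to either side, with 40 values above 0 and 36 below, a median log2 fold change of 0.01 and a median of 0.002 over all genes tested. Their median absolute log2 fold change was 0.093, beside 0.066 over all genes. The members were also dimmer, with a median log2 signal of 5.28 beside 7.46, and their median SE was 0.057 beside 0.051. The part of dim signal in the larger absolute changes was not tested. The arrays of the groups did not overlap in 32 of the 76 members, or 42.1%, beside 41.5% of all genes. The count of 8 called members was 3 without knockdown replicate 1, 3 without knockdown replicate 2, 6 without knockdown replicate 3, and 1 without either control replicate. Of the 68 members that did not pass, 25 changed sign with at least 1 array left out, and 56 changed sign or moved by over 1.5 times, whereas no called member did either. Called members were picked for a large difference on these same arrays, and values near 0 change sign easily. That contrast therefore does not measure how firm the calls are. An unadjusted limma p under 0.05 was found for 23 members (30.3%) and for 23.1% of all genes. Each replicate left out also lowered the count over all genes, from 956 to between 67 and 493.

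**Figure D1:**
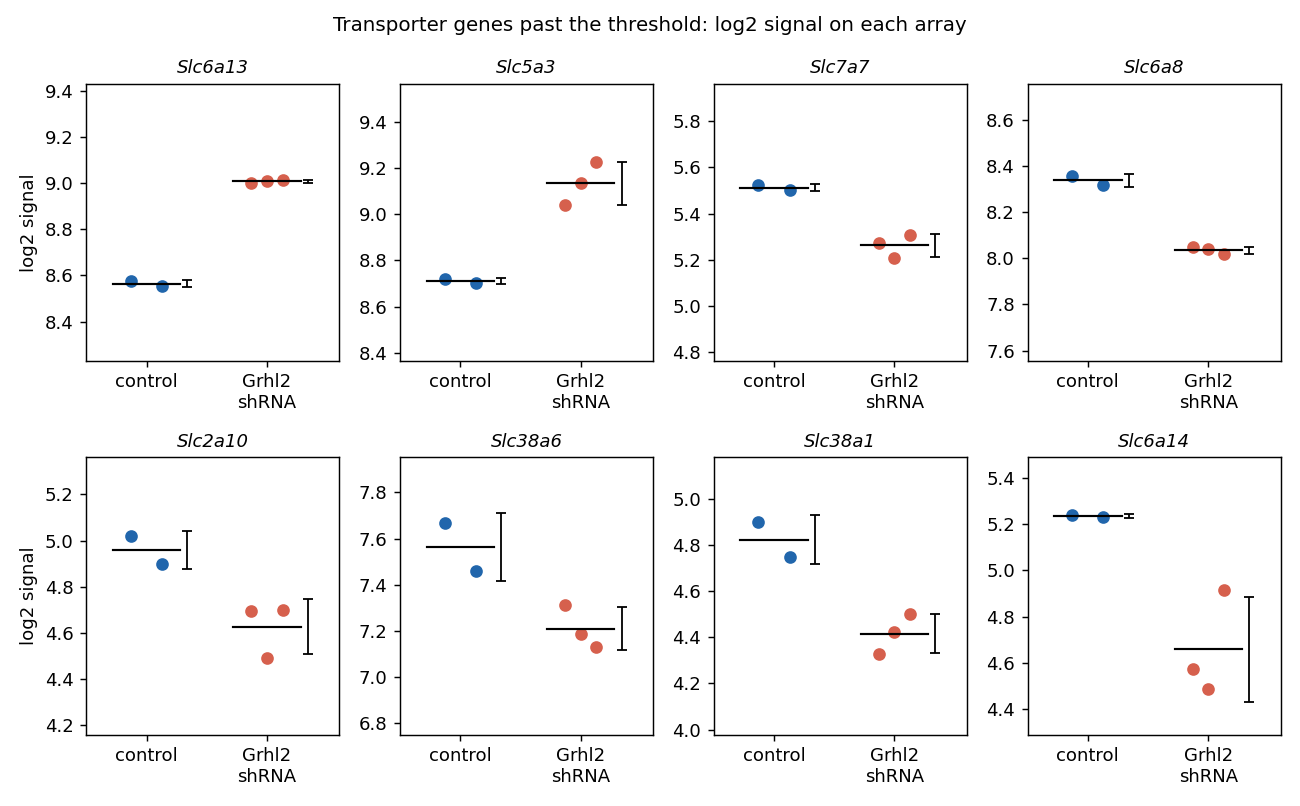
Log2 signal of the 8 called transporter genes on each array, control (blue, n = 2) and Grhl2 shRNA (orange, n = 3); the horizontal line is the group mean and the bar beside it the SD. Every panel spans the same log2 range, the groups do not overlap in any of the 8 genes, and the 3 knockdown values of Slc6a13 lie between 9.00 and 9.01.

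Of the facilitative sugar carriers, Slc2a10 alone passed. Slc2a10 (10478692), a GLUT family member of intracellular membranes that is linked to transport of glucose and oxidised vitamin C, had log2 values of 5.02 and 4.90 in the control and 4.69, 4.49 and 4.70 in the knockdown. The groups did not overlap, and knockdown replicate 2 was the lowest. Group means were 4.96 ± 0.08 (SD, n = 2) in the control and 4.63 ± 0.12 (SD, n = 3) in the knockdown, a log2 fold change of −0.33 (SE 0.075, limma adjusted p = 0.049). The signal was close to the filter, and the call ended whichever array was left out (limma adjusted p from 0.070 to 0.223). The other 10 tested genes with an Slc2a symbol, Slc2a4rg-ps among them, had values from −0.14 to 0.07. Among them the high-affinity neuronal-type glucose carrier Slc2a3 (10547641) was at −0.06 (95% confidence interval −0.18 to 0.07, limma adjusted p = 0.60), the insulin-responsive Slc2a4 at −0.06, the urate carrier Slc2a9 at −0.08 and the fructose carrier Slc2a5 at −0.14. The fructose carrier was lowest on knockdown replicate 1, at 4.94, and its groups overlapped.

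Of the sodium-coupled Slc5a carriers, Slc5a3 rose and 7 did not pass. Slc5a3 (10436945) brings in myo-inositol, a precursor of phosphoinositides and an organic osmolyte. Its log2 values were 8.72 and 8.70 in the control and 9.04, 9.14 and 9.23 in the knockdown. All knockdown values lay above both control values. The mean went from 8.71 ± 0.01 (SD, n = 2) to 9.13 ± 0.09 (SD, n = 3), 1.34-fold higher (log2 fold change 0.42, SE 0.060, limma adjusted p = 0.014). The call ended without control replicate 1 (limma adjusted p = 0.082) or control replicate 2 (limma adjusted p = 0.101). The sodium glucose carriers Slc5a1 and Slc5a2 were at 0.02 and −0.03, the other inositol carrier of the family, Slc5a11, at 0.13, and the vitamin carrier Slc5a6 at −0.02. Their groups overlapped.

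Slc5a3 shares its start with Mrps6, a gene of the mitochondrial ribosome, which was chosen for this comparison after its values were seen. In RefSeq the 2 genes overlap, and their starts lie 14 bases apart on the same strand, so that 286 bases of their 300-base promoter windows are the same. The window of Slc5a3 (RefSeq, GRCm38.p6, from 250 bases before the start to 50 after) is shown to make this shared start visible, with the 14 bases between the starts in capitals.
Slc5a3, chr16:92058072-92058371, plus strand: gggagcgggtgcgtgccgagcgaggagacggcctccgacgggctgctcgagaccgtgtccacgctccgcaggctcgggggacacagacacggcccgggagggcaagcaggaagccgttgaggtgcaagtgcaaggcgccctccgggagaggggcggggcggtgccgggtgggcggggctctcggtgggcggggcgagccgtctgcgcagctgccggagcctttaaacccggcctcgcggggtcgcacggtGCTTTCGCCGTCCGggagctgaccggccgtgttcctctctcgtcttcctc
Mrps6 (10436941) had log2 values of 9.37 and 9.38 in the control and 9.86, 9.89 and 9.89 in the knockdown, a log2 fold change of 0.50 (SE 0.040, limma adjusted p = 0.0037), and it passed whichever array was left out (limma adjusted p from 0.013 to 0.038). Both genes of the shared start were thus higher on all 3 knockdown arrays. Whether a probe set reads transcripts of both genes was not tested.

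The Slc6a family had the largest changes in both directions, with 1 rise and 2 falls among 14 genes tested. Over all genes, 2.86% were called higher and 3.52% lower. Slc6a13 (10541318), which takes up GABA and taurine with sodium and chloride, had log2 values of 8.57 and 8.56 in the control and 9.00, 9.01 and 9.01 in the knockdown. Replicates lay within 0.02 of each other in both groups, and the groups were far apart. Its mean increased from 8.57 ± 0.01 (SD, n = 2) to 9.01 ± 0.01 (SD, n = 3), 1.36-fold higher (log2 fold change 0.44, SE 0.039, limma adjusted p = 0.0048). It was the only member that passed whichever array was left out (limma adjusted p from 0.015 to 0.047). The betaine and GABA carrier Slc6a12 (10541333), the next gene on the chromosome, was at 0.10 (SE 0.069, limma adjusted p = 0.43) with overlapping groups, and the third GABA carrier tested, Slc6a11, at −0.07. Usp18, the gene on the other side of Slc6a13, was at 0.23 (SE 0.068, limma adjusted p = 0.099) and did not pass. Of the other carriers of small osmolytes, the taurine carrier Slc6a6 was at −0.12 (limma adjusted p = 0.19). The window of the most upstream of 3 RefSeq starts of Slc6a13 is shown, since this gene gave the firmest call.
Slc6a13, chr6:121300038-121300337, plus strand: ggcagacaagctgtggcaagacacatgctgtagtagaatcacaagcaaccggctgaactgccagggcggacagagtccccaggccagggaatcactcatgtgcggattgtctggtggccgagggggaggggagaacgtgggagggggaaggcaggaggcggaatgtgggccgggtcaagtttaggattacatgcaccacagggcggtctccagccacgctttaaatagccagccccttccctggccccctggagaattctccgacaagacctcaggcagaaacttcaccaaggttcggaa
It held none of the motifs searched here.

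Slc6a14 (10599008) had the largest change of any member. It encodes an apical carrier of airway and gut epithelium that takes up nearly all neutral and cationic amino acids. Its log2 values were 5.24 and 5.23 in the control and 4.57, 4.49 and 4.92 in the knockdown. Knockdown replicate 3 lay well above replicates 1 and 2 but below both controls. The mean went from 5.24 ± 0.01 (SD, n = 2) to 4.66 ± 0.23 (SD, n = 3), 1.49-fold lower (log2 fold change −0.58, SE 0.12, limma adjusted p = 0.037). The limma adjusted p was 0.0077 without knockdown replicate 3. The call ended without knockdown replicates 1 (adjusted p = 0.096) or 2 (adjusted p = 0.086) and without control replicates 1 (adjusted p = 0.162) or 2 (adjusted p = 0.164).

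The creatine carrier Slc6a8 (10600210), which supplies the phosphocreatine energy buffer, had log2 values of 8.36 and 8.32 in the control and 8.05, 8.04 and 8.02 in the knockdown. The replicates were tight and the groups did not overlap. The control mean was 8.34 ± 0.03 (SD, n = 2) and the knockdown mean 8.03 ± 0.01 (SD, n = 3), a log2 fold change of −0.30 (SE 0.040, limma adjusted p = 0.012). The call ended without control replicate 1 (limma adjusted p = 0.083) or control replicate 2 (limma adjusted p = 0.076). The glycine carrier Slc6a9 was at 0.12 (limma adjusted p = 0.33). The near-identical neighbours Slc6a20a and Slc6a20b, whose probes may not tell them apart, were both within 0.01 of 0.

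Most tested genes with an Slc3a or Slc7a symbol, the families of the heteromeric exchangers, were above 0 without passing. Slc7a7, which fell, was the only one past the threshold. The heavy chain Slc3a2 (10465772), which carries most of the light chains to the membrane, had log2 values of 11.84 and 11.89 in the control and 12.00, 12.00 and 11.90 in the knockdown, a log2 fold change of 0.11 (SE 0.050, limma adjusted p = 0.26). The knockdown values lay above the control values by a narrow margin. The other heavy chain, Slc3a1, was at −0.11 (limma adjusted p = 0.38), and neither Slc3a gene had an unadjusted limma p under 0.05. Of 11 tested genes with an Slc7a symbol, 9 had values above 0 and 2 below, and all but Slc7a7 missed the threshold. Their median was 0.10, and 0.06 without control replicate 2. Not all of the 11 are light chains, so these counts do not describe the heteromeric exchangers alone. Examples are Slc7a6os and also Slc7a1, Slc7a2 and Slc7a3, which work without a heavy chain. In 7 of the 11 every knockdown array was above both controls, and in 1, Slc7a7, every one was below. Among the 7 is Slc7a3, whose control mean of 4.12 lay below the filter. Over all genes, 21.0% had every knockdown array above and 20.5% every one below.

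Slc7a7 (10419744), the y+LAT1 light chain, exports cationic amino acids in exchange for neutral ones. Its log2 values were 5.52 and 5.50 in the control and 5.27, 5.21 and 5.31 in the knockdown. The groups did not overlap. The mean went from 5.51 ± 0.02 (SD, n = 2) to 5.26 ± 0.05 (SD, n = 3), a log2 fold change of −0.25 (SE 0.046, limma adjusted p = 0.029). The call ended without control replicates 1 (limma adjusted p = 0.143) or 2 (limma adjusted p = 0.135) and without knockdown replicates 1 (limma adjusted p = 0.064) or 2 (limma adjusted p = 0.088). Its paralog Slc7a6 (10574985), the y+LAT2 light chain, which performs the same kind of exchange, was at 0.12 (95% confidence interval 0.01 to 0.23, limma adjusted p = 0.17). The 95% confidence interval of Slc7a7 ran from −0.36 to −0.14 and did not meet that of Slc7a6, although the difference between the genes was not itself tested.

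The cystine and glutamate exchanger Slc7a11 (10498024), which supplies cysteine for glutathione, had log2 values of 8.86 and 8.62 in the control and 8.97, 9.03 and 9.03 in the knockdown. All knockdown values were above the controls, and control replicate 2 was the lowest. Its log2 fold change was 0.27 (SE 0.073, limma adjusted p = 0.077), and 0.15 (limma adjusted p = 0.275) without control replicate 2. Slc7a5 (10582275), the LAT1 carrier of leucine and other large neutral amino acids, was at 0.11 (SE 0.050, limma adjusted p = 0.24). The cationic amino acid carriers Slc7a1, Slc7a2 and Slc7a3, which work without a heavy chain, were at 0.22, 0.07 and 0.30 (limma adjusted p = 0.12, 0.62 and 0.17). Leaving out control replicate 2 brought Slc7a3 to 0.10, and leaving out control replicate 1 instead brought it to 0.50.

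Promoter windows were searched on both strands for TGATGNAA, the core of the C/EBP-ATF element through which amino acid shortage is known to act, for AACNGGTT, a core that Grainyhead-like factors bind, and for the E-box CACGTG. The table of RefSeq promoters held windows for 75 of the 102 member genes and for 6 of the 8 called genes. TGATGNAA was in 3.97% of all 32851 windows, AACNGGTT in 2.09% and CACGTG in 7.15%. Among the 98 windows of the members, 5 held TGATGNAA, 2 held AACNGGTT and 12 held CACGTG, and no motif overlapped another. The tested genes with a TGATGNAA match were Slc7a11, Slc7a7, Slc1a4 and Slc6a21, with log2 fold changes of 0.27, −0.25, 0.13 and −0.01, so genes with the match lay on both sides of 0. AACNGGTT occurred in the windows of Slc38a7 and Slc38a11 and in none of the 12 windows of called genes. The windows of Slc7a11 and of the start of Slc7a7 with most matches are printed to show where the TGATGNAA matches, in capitals, lie.
Slc7a11, chr3:50443564-50443863, minus strand: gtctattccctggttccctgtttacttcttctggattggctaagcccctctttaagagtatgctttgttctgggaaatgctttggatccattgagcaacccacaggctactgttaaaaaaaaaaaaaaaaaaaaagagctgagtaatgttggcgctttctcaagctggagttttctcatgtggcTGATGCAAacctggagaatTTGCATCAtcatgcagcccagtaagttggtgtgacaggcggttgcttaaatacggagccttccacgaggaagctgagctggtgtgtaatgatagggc
Slc7a7, chr14:54417895-54418194, minus strand: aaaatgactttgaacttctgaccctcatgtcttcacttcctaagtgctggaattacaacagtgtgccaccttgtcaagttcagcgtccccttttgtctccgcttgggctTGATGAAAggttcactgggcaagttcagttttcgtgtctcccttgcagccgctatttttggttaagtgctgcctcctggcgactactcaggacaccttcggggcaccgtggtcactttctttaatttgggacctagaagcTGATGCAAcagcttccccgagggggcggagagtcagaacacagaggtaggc
Slc7a11 held its 2 matches in opposite orientation, 66 and 47 bases before the start. In Slc7a7, 1 match began 141 bases before the start and another 1 base before it. A match describes the letters of the reference and does not show a bound site.

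The Slc1a carriers had 0 of 5 tested genes past the threshold with limma, and 2 with an unadjusted p under 0.05. Over all genes that share was 23.1%, which is the background for the counts of this kind given for the other families and lists. Slc1a5 (10550332), the ASCT2 glutamine carrier, had log2 values of 9.69 and 9.67 in the control and 9.91, 9.85 and 9.79 in the knockdown. All 3 knockdown values were above the controls, with a log2 fold change of 0.17 (SE 0.049, limma adjusted p = 0.093). Its relative Slc1a4, which exchanges alanine, serine and cysteine, was at 0.13 (limma adjusted p = 0.24), and the glutamate carriers Slc1a1 and Slc1a2 at 0.09 and 0.12 (limma adjusted p = 0.57 and 0.12). Slc1a7, the only tested gene of the family below 0, was at −0.05 (limma adjusted p = 0.72), with overlapping groups.

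The sodium-coupled neutral amino acid carriers of the Slc38a family had 2 falls and no rise among 9 genes tested. Over all genes, 3.52% were called lower. Besides Slc6a, Slc38a was the only family with more than 1 call in a single direction. The family's median log2 fold change was −0.13, with 6 values below 0 and 3 above, and the median was −0.08 without control replicate 1. Slc38a1 (10431874), a plasma membrane carrier of glutamine and alanine, had log2 values of 4.90 and 4.75 in the control and 4.33, 4.42 and 4.50 in the knockdown. The groups did not overlap, at a signal close to the filter. Means were 4.82 ± 0.11 (SD, n = 2) and 4.42 ± 0.09 (SD, n = 3), a log2 fold change of −0.41 (SE 0.068, limma adjusted p = 0.022). A second, dimmer probe set for Slc38a1 (10431872) lay below the filter, and its difference was −0.005. The Slc38a1 call held with knockdown replicate 3 left out (limma adjusted p = 0.035) and ended when any of the other 4 arrays was left out (limma adjusted p from 0.053 to 0.122).

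Slc38a6 (10396383), a less studied member of the family, had log2 values of 7.67 and 7.46 in the control and 7.31, 7.19 and 7.13 in the knockdown. The controls were spread, but both lay above all knockdown values. The mean went from 7.56 ± 0.15 (SD, n = 2) to 7.21 ± 0.09 (SD, n = 3), a log2 fold change of −0.35 (SE 0.078, limma adjusted p = 0.046). The call ended whichever array was left out (limma adjusted p from 0.056 to 0.201). Slc38a2 (10431894), the glutamine carrier that lies next to Slc38a1 on the chromosome and rises when amino acids are short, was at 0.05 (95% confidence interval −0.05 to 0.16, limma adjusted p = 0.53), with overlapping groups.

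**Figure D2:**
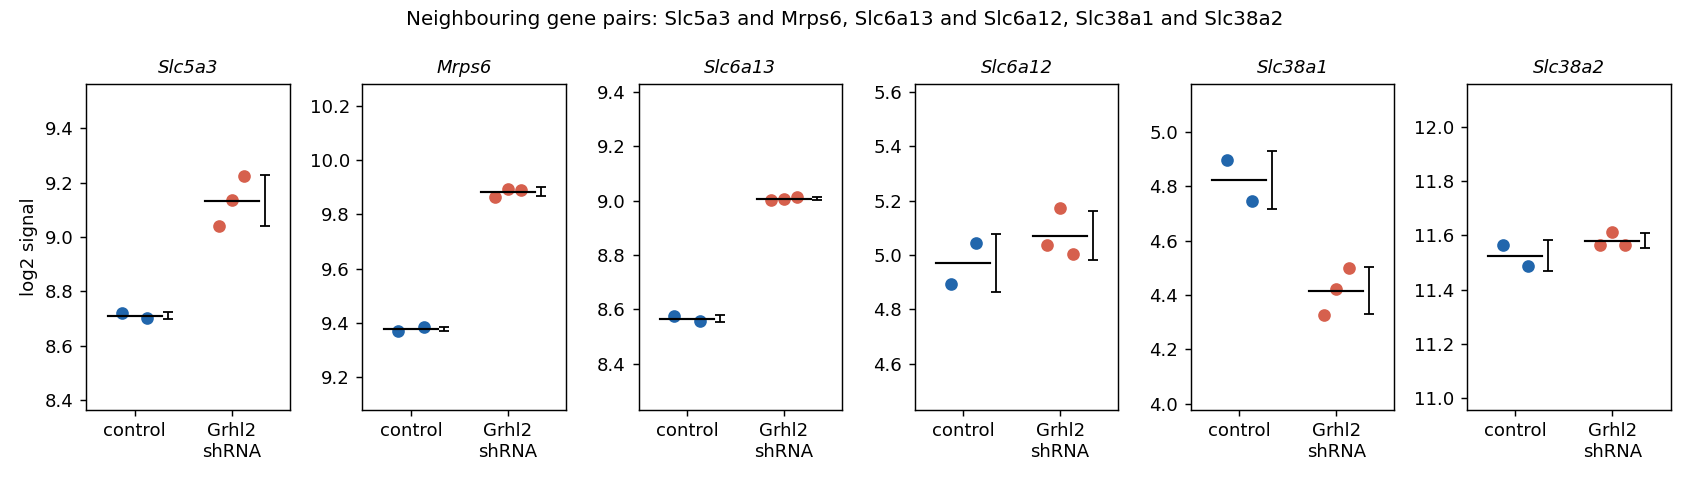
Log2 signal on each array of 3 pairs of neighbouring genes, Slc5a3 with Mrps6, Slc6a13 with Slc6a12 and Slc38a1 with Slc38a2, control (blue, n = 2) and Grhl2 shRNA (orange, n = 3); lines are group means, bars SDs, and every panel spans the same log2 range. Slc5a3 and Mrps6 were both higher in the knockdown, whereas the groups overlapped for Slc6a12 and Slc38a2 beside the called Slc6a13 and Slc38a1.

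The lysosomal members lay just outside the threshold or further off. Slc38a9 (10407192), the lysosomal arginine sensor upstream of mTORC1, had log2 values of 8.06 and 8.08 in the control and 7.75, 7.91 and 7.83 in the knockdown. The groups did not overlap, with a log2 fold change of −0.23 (SE 0.055, limma adjusted p = 0.054). A dimmer probe set of Slc38a9 (10407209) gave a difference of −0.001, so the probe sets of this gene disagree. The lysosomal glutamine and asparagine carrier Slc38a7 was at −0.14 (limma adjusted p = 0.11). Slc36a1 (10376216), the proton-coupled exporter of small amino acids from lysosomes, was at 0.06 (95% confidence interval −0.12 to 0.24, limma adjusted p = 0.70). With limma, 0 of 4 Slc36a genes passed and 1 had an unadjusted p under 0.05: Slc36a3 (10386007), at 0.20 (limma adjusted p = 0.080). Its control mean of 4.15 lay below the filter of 4.22 and its knockdown mean of 4.35 above it. It was thus tested only through its higher knockdown values, and its difference is no support for a rise.

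Of the Slc43a genes, 0 of 3 passed the threshold with limma and 2 had an unadjusted p under 0.05. Slc43a1 (10473367), the LAT3 carrier of large neutral amino acids, had log2 values of 5.02 and 5.14 in the control and 5.22, 5.41 and 5.31 in the knockdown. Its log2 fold change was 0.23 (SE 0.068, limma adjusted p = 0.093). Slc43a3 (10473384), a purine base carrier, was at −0.21 (SE 0.054, limma adjusted p = 0.071), with all knockdown values below the controls.

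Of 9 monocarboxylate carrier genes (Slc16a), 0 passed the threshold with limma and 2 had an unadjusted p under 0.05. Slc16a1 (10495035), the MCT1 carrier of lactate and pyruvate, had log2 values of 9.69 and 9.81 in the control and 9.86, 9.86 and 9.80 in the knockdown, and the groups overlapped. Its log2 fold change was 0.09 (95% confidence interval −0.03 to 0.21, limma adjusted p = 0.35). Slc16a3 (10383502), the MCT4 lactate exporter of glycolytic cells, was at −0.19 (95% confidence interval −0.39 to 0.01, limma adjusted p = 0.25). The orphan carrier Slc16a14 (10356240) had the largest value of the family, 0.24 (limma adjusted p = 0.18), and Slc16a6, a carrier of ketone bodies, was at −0.17 (limma adjusted p = 0.13). Without knockdown replicate 1, Slc16a14 was at 0.15, smaller in size than Slc16a3 at −0.25 and Slc16a6 at −0.15. With 5 arrays, these genes are not shown to be unchanged, and the intervals give the range of values compatible with the data.

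**Figure D3:**
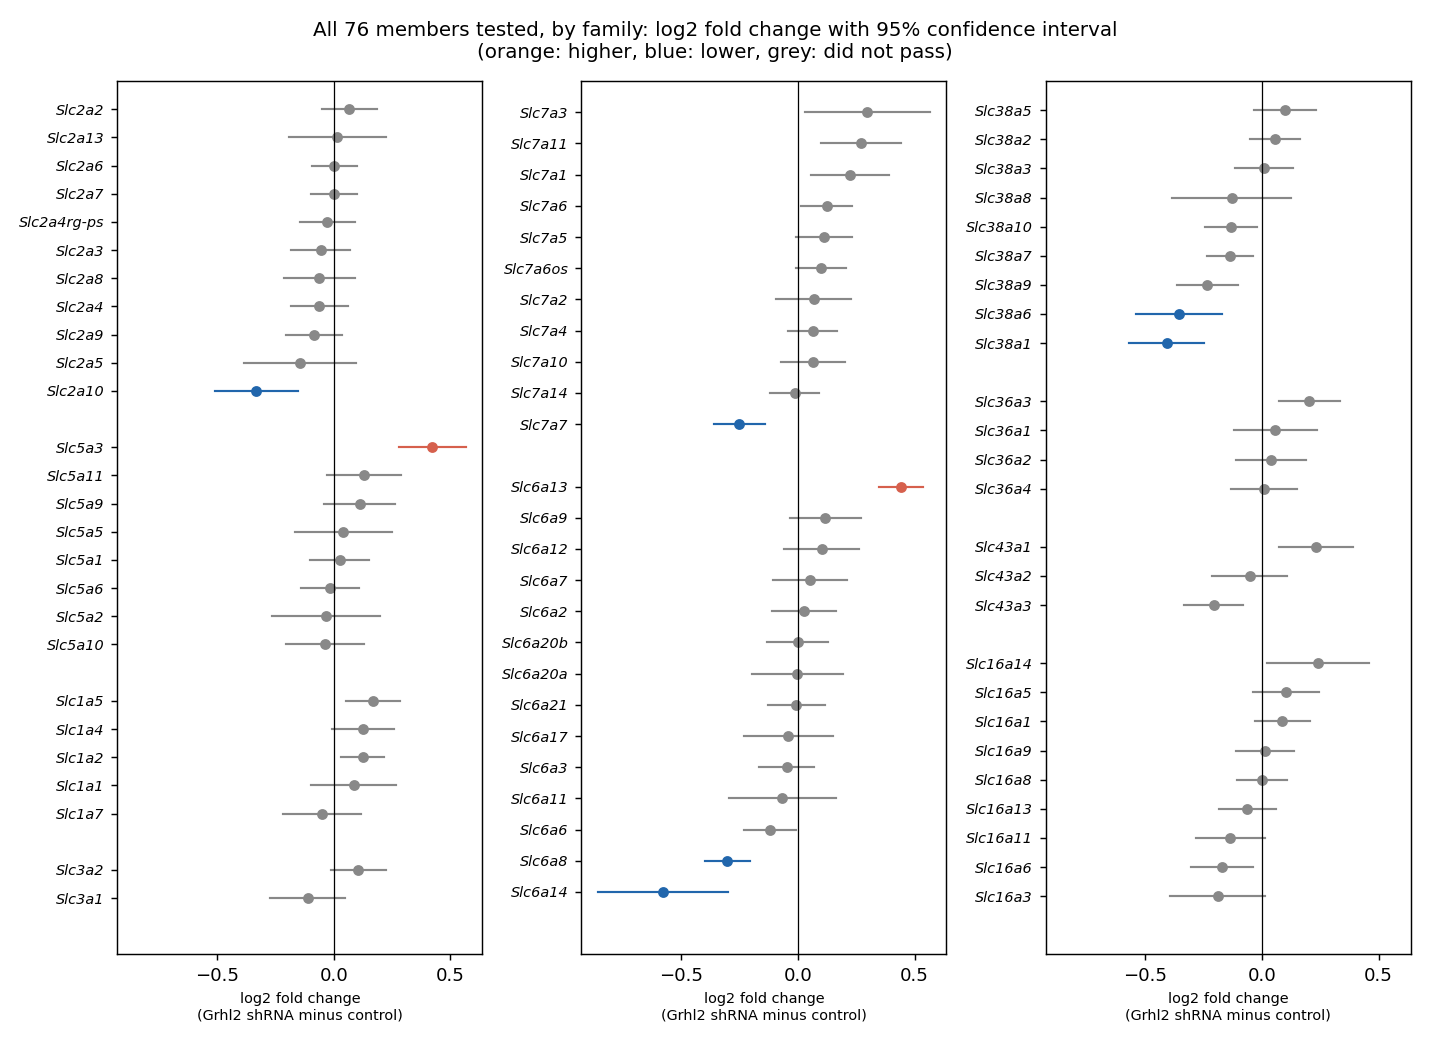
Log2 fold change (Grhl2 shRNA minus control) of all 76 tested members by family, with the 95% confidence interval of the limma fit; orange genes were higher, blue genes lower and grey genes did not pass an adjusted p of 0.05. The 2 rises are in Slc5a and Slc6a, and the 6 falls are in Slc2a, Slc6a, Slc7a and Slc38a.

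Genes that work with these carriers were taken from lists of partners, of glycolysis, of amino acid enzymes and of amino acid sensing. Among the 8 partners and regulators tested there was 1 fall and no rise, beside 3.52% of all genes called lower and 2.86% higher. Their median was −0.02. The gene that fell was Nedd4l, a ubiquitin ligase that removes membrane carriers and channels, by 0.20 (SE 0.041, limma adjusted p = 0.036). That call ended whichever array was left out (limma adjusted p from 0.071 to 0.174). Bsg and Emb, the chaperones of the monocarboxylate carriers, were both at −0.12 (limma adjusted p = 0.21 and 0.28), and Txnip, which promotes removal of glucose carriers from the membrane, at 0.003.

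Among the 18 genes of glycolysis and lactate metabolism tested there was 1 fall and no rise, beside 3.52% of all genes called lower. The median log2 fold change was −0.12, with 13 values below 0 and 5 above, beside 49.1% below 0 over all genes. Without control replicate 2 the median was −0.03, still with 13 values below 0. The aldolase gene Aldoc fell by 0.51 (SE 0.085, limma adjusted p = 0.022), a call that ended without control replicates 1 (limma adjusted p = 0.062) or 2 (limma adjusted p = 0.134). The 22 amino acid enzymes tested gave 2 rises and no fall, with a median of 0.06, 14 values above 0 and 8 below, beside 2.86% of all genes called higher and 50.9% above 0. Without control replicate 2 that median was 0.03, and also 0.03 without knockdown replicate 2. Cth, which makes cysteine from cystathionine, rose by 0.54 (SE 0.087, limma adjusted p = 0.021), and Shmt1, which interconverts serine and glycine, by 0.26 (SE 0.041, limma adjusted p = 0.020). The Cth call ended without control replicates 1 (limma adjusted p = 0.120) or 2 (limma adjusted p = 0.083) or knockdown replicate 1 (limma adjusted p = 0.057). The Shmt1 call held with knockdown replicate 1 left out (limma adjusted p = 0.0499) and ended when any of the other 4 arrays was left out (limma adjusted p up to 0.133). Of 29 tested genes of amino acid sensing by mTORC1, 0 passed with limma, beside 6.38% of all genes in either direction. Of these 29, 1 had an unadjusted limma p under 0.05, beside 23.1% of all genes. Their values ran from −0.14 to 0.10. In the other lists, 4 of 8 partners, 9 of 18 glycolysis genes and 9 of 22 amino acid enzymes had an unadjusted limma p under 0.05. The lists were chosen with earlier results of these data known.

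**Figure D4:**
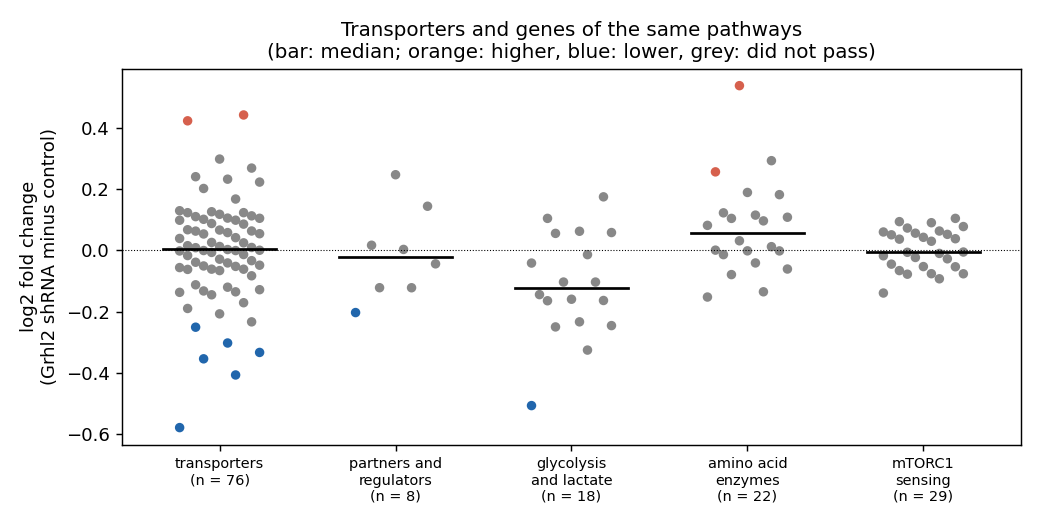
Log2 fold change (Grhl2 shRNA minus control) of each tested gene among the transporters and the 4 lists of genes from the same pathways; bars are medians, and orange, blue and grey mark genes higher, lower and not past an adjusted p of 0.05. The transporters spread to both sides of 0, the glycolysis list has its median at −0.12 (−0.03 without control replicate 2) and the amino acid enzymes at 0.06 (0.03 without that array).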

How the data were processed

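Log2 expression values from 5 arrays of MLE-15 cells were used as the authors deposited them; per the submitters' processing notes, RMA and Affymetrix Expression Console were used. RMA removes background, equalises the distribution of values between arrays and summarises each probe set. The log2 scale was read from that method and the range of the values. The sources used here name no software version or filter. Of 34760 probe sets, 21640 have 1 gene symbol in the platform annotation, 1321 several and 11799 none listed; 21553 were matched by Entrez ID to RefSeq (GRCm38.p6), which changed no symbol.

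Probe sets with a mean below the 25th percentile (4.22) were dropped, which kept 16230, and the brightest probe set stood for each gene (14979 genes). The main test was limma 3.58.1 (lmFit, then eBayes; R 4.3.3), two-sided, with Benjamini-Hochberg adjustment over all genes and a threshold of 0.05. Differences are knockdown minus control. There are 3 residual degrees of freedom, and so few arrays limit the precision. The fit was tested on simulated data. Detection p-values were not used, so passing the filter does not show expression. Slc2a1 is not reported here.

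The members and lists were chosen with earlier results of these data known. Named are members with an adjusted p under 0.1, the largest change in each family, 11 fixed members, and up to 4 called genes of each list; other values given beside them are from the same fit. Alternatives covered the filter, normalization, choice of probe set, variance prior, weights for arrays, a block for the replicate number, leaving out each array, all probe sets and the threshold.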

Additional observations from a re-analysis of the deposited data

How the results depend on the processing

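The 8 called members stayed at 8 with each array centred on its median, with quantile normalization repeated and with array weights. The count was also 8 with the mean of a gene's probe sets. That setting left the estimate of each called member as it was, since the second probe set of Slc38a1 is below the filter and the others have 1. Added after the data were seen, the count without the opposite strand and pseudogene symbols was 8 too. None of those symbols was called, so it could not differ. Without a filter, 4 members (2 higher and 2 lower, all among the 8) and 418 genes passed. With the filter at the 50th percentile, where only 29 members were bright enough to be tested, 9 members and 1708 genes passed. These 9, 4 higher and 5 lower, held only 4 of the 8 called members. The other called members were too dim to be tested there. The median member change was 0.058 over those fewer genes. A trended robust prior gave 13 members and 2034 genes, and a threshold of 0.1 gave 14 members and 1851 genes. With all 34760 probe sets tested together, 0 members and 0 genes passed with limma, where 18 members and 4515 probe sets had an unadjusted p under 0.05. Leaving out each array in turn gave 1 to 6 members, 67 to 493 genes and a median member change of −0.01 to 0.03. With the replicate number as a block, 2 members (Slc6a13 and Slc6a14) and 172 genes passed. No control has the number 3, so knockdown replicate 3 added nothing to the differences in that setting. Its median member change, 0.016, was the same as without that array, so the block is not a separate check on all 5 arrays. The labels do not say what a number shares, and the deviations of same-numbered arrays from their group means correlated at 0.057 and 0.019, so the numbers were not taken as pairs. None of the 8 called members changed sign under any alternative in which it was tested. Without control replicate 1 or 2, 12 and 11 of the other members changed sign; over the arrays left out, Slc5a1 ran from −0.05 to 0.10, Slc5a2 from −0.19 to 0.12 and Slc6a11 from −0.23 to 0.09. The causes of these changes were not tested. Low signal limits the dimmest calls: Slc38a1, Slc2a10, Slc6a14 and Slc7a7 have means of 4.58, 4.76, 4.89 and 5.36, near the filter of 4.22.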
